A study of Homo sapiens with 7 samples.

Results

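The TSPAN8 and LGR5 genes lie back to back on chromosome 12, and the GATA6 peaks around both are described here. The peaks were chosen by position from a deposited peak list, as those with a summit between 71400000 and 72100000 on chromosome 12 (hg19). This window held 14 peaks, of 424 on chromosome 12 and 7568 in the whole list. The neighbourhood had been picked with the list already known to hold a large cluster of summits there, so the number and closeness of the peaks are given as a description and were not tested.

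The list came from chromatin immunoprecipitation and sequencing (ChIP-seq) of LS174T, an established human colorectal carcinoma line. GATA6 was precipitated with an antibody to the human protein in 3 libraries, and 1 library held input DNA with no antibody. All groups were LS174T cells grown, with no treatment named, in medium with 10% serum and fixed for 15 min in 1% formaldehyde. The series also had 1 library each for H3K27ac, H3K4me3 and H3K4me1, which were not analysed here. The list gives no value for a single library. Values below therefore come without replicate error, and how deeply each library was sequenced is unknown.

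LGR5 encodes a leucine-rich repeat receptor for R-spondins, secreted proteins that strengthen Wnt signalling at the cell membrane. LGR5 is itself a target gene of the Wnt pathway and is widely used as a marker of intestinal stem cells and of stem-like cells in colorectal tumours. TSPAN8 encodes a tetraspanin, a small protein with several membrane-spanning segments that organises other proteins at the cell surface, and is known from gastrointestinal epithelium and carcinomas. GATA6 is a zinc-finger factor of endodermal tissues that recognises DNA around the letters GATA.

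TSPAN8 is transcribed from the minus strand, with a span from 71.519 to 71.552 Mb, and LGR5 from the plus strand, with a span from 71.834 to 71.978 Mb. Their starts therefore face away from each other across 282 kb. These ends are rounded to 1 kb, so each distance to a start carries an uncertainty of 0.5 kb. Ordered by lower coordinate in RefSeq (GRCh38.p14), 3 long noncoding RNA genes and 0 protein-coding genes come between TSPAN8 and LGR5. They are LOC105369831, LOC105369832 and LOC124902962. This order does not show where their transcription starts, and a gene that overlaps TSPAN8 would also be counted.

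Of both members, 1 had an entry in the RefSeq promoter table, TSPAN8, with 2 starts that lie 190 bp apart. The sequence before the outer start is shown because the highest peak of the neighbourhood lay at this end of the gene. It is in GRCh38.p14, at chr12:71158000-71158249 on the minus strand, and its positions are not comparable with the hg19 positions of the peaks. Capitals mark GATA on either strand, read as GATA or as TATC.

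TSPAN8, the 250 bases before its outer start: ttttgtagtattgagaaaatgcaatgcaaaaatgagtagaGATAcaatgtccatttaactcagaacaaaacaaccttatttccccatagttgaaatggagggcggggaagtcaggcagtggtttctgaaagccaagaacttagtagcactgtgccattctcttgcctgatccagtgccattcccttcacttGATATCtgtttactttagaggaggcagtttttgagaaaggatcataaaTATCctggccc

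These bases held 4 matches to GATA, of which 2 share letters in GATATC. None of the 4 was one of the longer forms AGATAA or AGATAG or TGATAA or TGATAG, searched on both strands. Such a form occurred once in the promoter window of 300 bases, as AGATAG from the 45th base after the outer start. The 20 bases that end with it are shown because this was the only longer form in either promoter window of TSPAN8.

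TSPAN8, longer form after the outer start: acatacttgcctggAGATAG

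Of 35116 RefSeq promoter windows of 300 bases, 24.97% held at least 1 of the longer forms and 49.7% held GATA. The second TSPAN8 window, for the inner start, held 9 matches to GATA. It overlaps the outer window, so some of these are the same sites as those counted there. A match of letters is a description and not a binding site. The sequence under the peaks was not extracted, and whether the bases shown lie under a peak was not determined.

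Most GATA6 peaks gathered at the starts of both genes and in the part of the interval between them nearer to TSPAN8, and 1, peak 12 below, stood alone nearer to LGR5. By the rounded spans, 10 of the 14 summits lay between the starts, 3 within TSPAN8 and 1 within LGR5. The summits of 2 of them, peaks 3 and 4 below, lay within the rounding of the TSPAN8 start, so on which side of it each falls was not resolved. Within 10 kb of the TSPAN8 start were 7 summits, and within 10 kb of the LGR5 start were 2. At 50 kb the counts were 9 and 2, and at 100 kb they were 11 and 3. Long stretches of the window held no summit of this list. These included the 119 kb of the window downstream of TSPAN8, at lower coordinates, and 27.7 kb of TSPAN8 towards its end. Between the genes they included 158 kb on the TSPAN8 side of peak 12 and 63.8 kb on its LGR5 side. The 143 kb of LGR5 past its first peak and the rest of the window beyond LGR5 held none either.

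**Figure D1:**
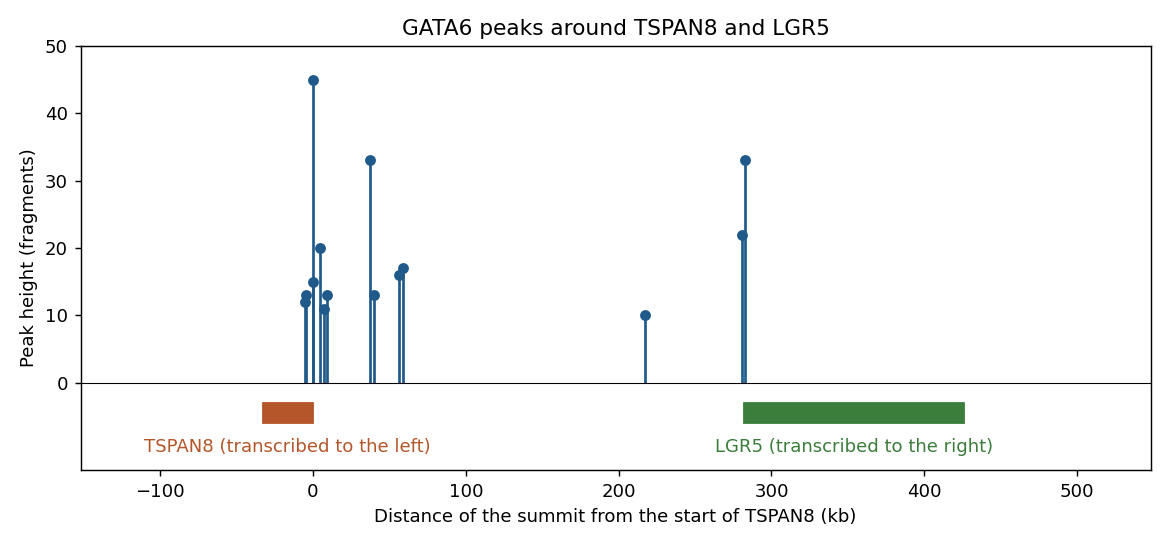
Peak height in fragments (vertical axis) against the distance of each summit from the start of TSPAN8 in kb (horizontal axis), over the whole 0.7 Mb window. Each stem is 1 of the 14 peaks and the boxes are the gene spans; 11 stems stand within 59.0 kb of the TSPAN8 start, 1 stands alone at 217 kb and 2 stand at the LGR5 start.

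With summits linked over at most 10 kb, the 14 peaks formed 5 groups: 7 peaks at TSPAN8, 2 and 2 peaks upstream of TSPAN8, 1 lone peak and 2 peaks at LGR5. Neighbouring summits had a median distance of 2.55 kb, against 125 kb over all 423 neighbouring pairs of chromosome 12. In the window 13 of 14 peaks had a neighbour within 10 kb, against 27.2% of the whole list. Position chose these peaks, so nothing follows from that share.

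The peaks are numbered 1 to 14 along the chromosome below. The height of a peak is the deposited pileup, the number of fragments that cover its summit, and its interval is the exact 95% Poisson interval, which covers counting error only. The fold is the enrichment over a local background as the authors gave it. That background was computed as height divided by fold and is given in fragments.

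At the start of TSPAN8 stood the highest peak of the neighbourhood, peak 4, from 71552128 to 71552631 with its summit at 71552255. Its summit was 0.26 kb upstream of the rounded start, which is within the rounding. Its height was 45 fragments (32.8 to 60.2) at a fold of 22.55, and its authors' −log10 q was 39.91. It ranked 248 of 7568 by height and 377 by −log10 p. It was 504 bp wide, and 96.7% of the list was narrower. Its summit lay 127 bp from its lower edge, at 25.2% of its width, so the peak was drawn out in the direction away from the gene.

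Peak 3 lay beside it on the gene's side, from 71551592 to 71551956, with its summit 448 bp from that of peak 4 and 0.19 kb inside the rounded start, also within the rounding. Its height was 15 (8.40 to 24.7) at a fold of 6.61, and its background was 2.27. The intervals of peaks 3 and 4 did not overlap, so their difference was larger than counting error. With summits within 1 kb joined, these would count as 1 peak and the window would hold 13.

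Within the TSPAN8 gene, peaks 1 and 2 lay 5.31 and 4.31 kb past the start. Peak 1, from 71546627 to 71546818, had a height of 12 (6.20 to 21.0) at a fold of 10.91. Peak 2, from 71547569 to 71547819, had a height of 13 (6.92 to 22.2) at a fold of 11.28. The heights of both peaks differed by less than counting error, and their backgrounds of 1.10 and 1.15 were close to each other.

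Upstream of TSPAN8, the same group held 3 more peaks. Peak 5, from 71556741 to 71557348, lay 4.83 kb upstream with a height of 20 (12.2 to 30.9). It was the widest peak of the window, 608 bp, wider than 98.8% of the list, and its fold was 5.01 over a background of 3.99. Its summit stood at 15.0% of its width, and it was the 1 member with a summit in the outer 20% on either side, against 4.1% of the list.

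Peak 6, from 71559233 to 71559407, lay 7.31 kb upstream with a height of 11 (5.49 to 19.7) at a fold of 9.40. Peak 7, from 71560869 to 71561043, lay 8.99 kb upstream with a height of 13 (6.92 to 22.2). Its fold was 4.34 over a background of 3.00, and its −log10 q of 2.31 was the lowest of the 14. Both had the smallest width in the list, 175 bp. The TSPAN8 group thus combined 1 high peak with 6 peaks of 11 to 20 fragments, and the lower limit of peak 4 lay above the upper limits of all 6.

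**Figure D2:**
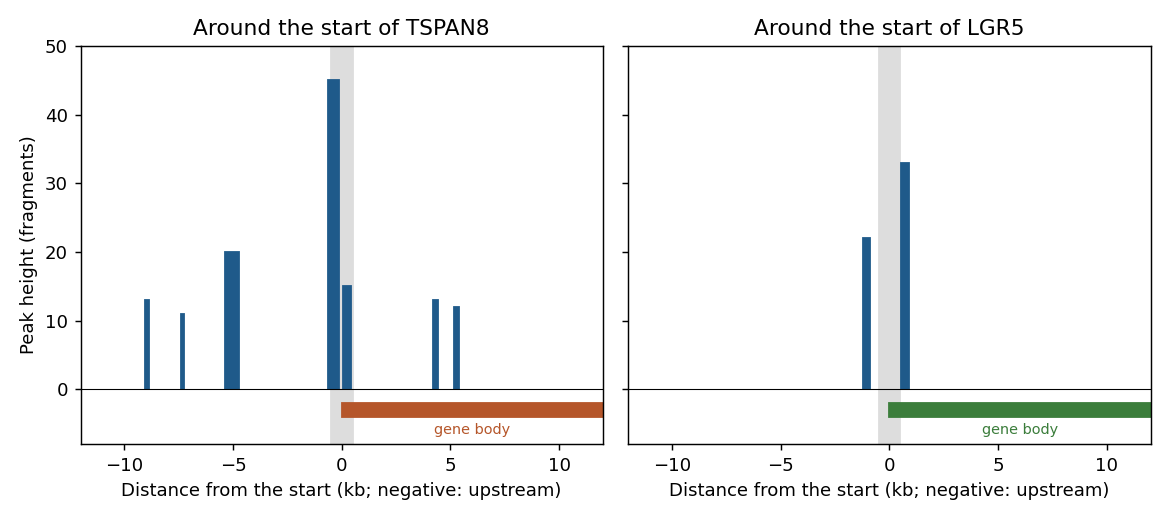
Peaks within 12 kb of each gene's start, drawn as boxes from peak start to peak end, with height in fragments (vertical axis) against distance in kb along the direction of transcription (horizontal axis; the grey band is the 0.5 kb rounding of the start). TSPAN8 has 7 peaks with 1 of 45 fragments at the start and 6 of at most 20, whereas LGR5 has 2, of 22 and 33 fragments, on either side of its start.

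At LGR5, peaks 13 and 14 stood on either side of the rounded start, 1.77 kb apart. Peak 13, from 71832796 to 71833112, had its summit 1.030 kb upstream and a height of 22 (13.8 to 33.3) at a fold of 21.00. Peak 14, from 71834543 to 71834882, had its summit 0.74 kb inside the gene and a height of 33 (22.7 to 46.3) at a fold of 23.63. Their intervals overlapped, so which is higher was not resolved at this depth. Their widths of 317 and 340 bp and their central summits, at 55.1% and 57.2% of the width, were alike.

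The −log10 q of the LGR5 peaks was 18.22 and 29.58, and both exceeded the list's median of 9.24. Peak 14 and peak 4 at the TSPAN8 start had overlapping intervals of height and close folds, 23.63 and 22.55. The LGR5 start thus had a peak within counting error of the highest one at TSPAN8, without the lower peaks that stood around the TSPAN8 start. The next summit upstream of LGR5 was peak 12, which lay 64.9 kb away. Downstream, the next summit of the list was at 74163300, 2.33 Mb beyond peak 14, and this interval ranked 7 of 423 on chromosome 12 by length.

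Between the genes, 5 peaks lay far from both starts. Peak 8, from 71589265 to 71589636 and 37.5 kb upstream of TSPAN8, was as high as the higher LGR5 peak, with 33 fragments (22.7 to 46.3). Over a background of 0.998 it had the largest fold of the window, 33.08, and its −log10 q of 34.23 was second to that of peak 4. Its neighbour, peak 9, from 71591936 to 71592181, had a height of 13 (6.92 to 22.2) at a fold of 10.64, and the intervals of this pair did not overlap.

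Peaks 10 and 11 lay 56.6 and 59.0 kb upstream of TSPAN8 and 225 and 223 kb upstream of LGR5. Their heights were alike, 16 (9.15 to 26.0) and 17 (9.90 to 27.2), but their backgrounds were 3.99 and 1.397, and their folds were 4.01 and 12.17. Peak 10, from 71608499 to 71608673, therefore had the lowest fold of the window and peak 11, from 71610876 to 71611121, did not stand out. Peak 12, from 71768907 to 71769241, was the lowest of all at 10 fragments (4.80 to 18.4), with a fold of 10.02.

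**Figure D3:**
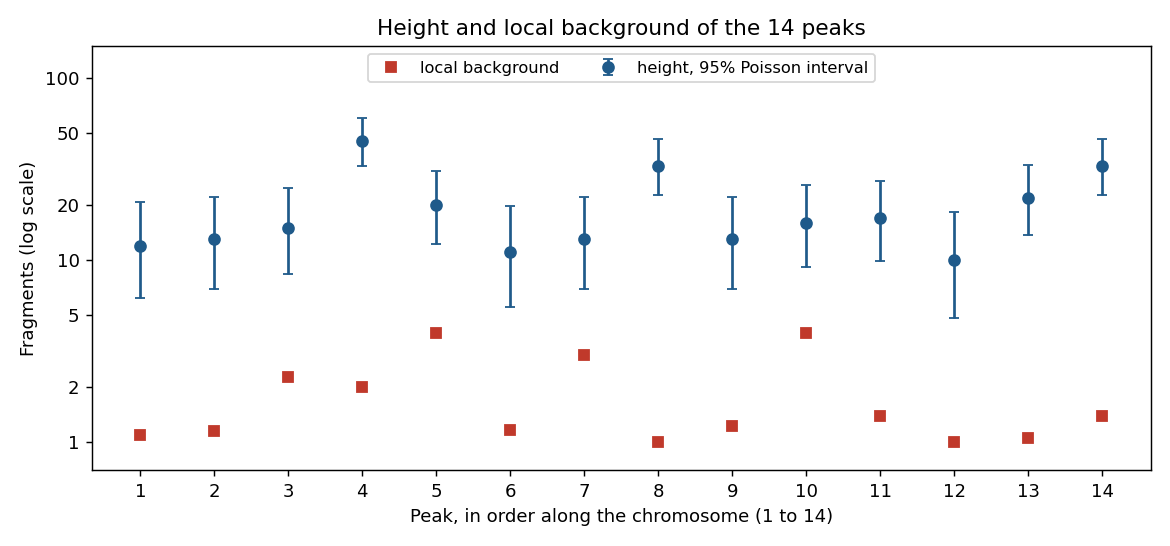
Height (circles, with exact 95% Poisson intervals) and local background (squares) of the 14 peaks in fragments on a log scale, in order along the chromosome. Peaks 4, 8, 13 and 14 have the highest heights, from 22 to 45; peaks 5, 7 and 10 have the highest backgrounds, from 3.00 to 3.99.

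Set against chromosome 12, the 14 peaks were of ordinary height and had a lower median fold. Their median height was 15.5 fragments, with quartiles of 13 and 21.5, and that of the other 410 peaks of the chromosome was 16, with quartiles of 12 and 24. Their median fold was 10.8 (quartiles 7.31 and 18.8), against 14.3 (10.0 and 21.0). Their median background was 1.31 (1.11 and 2.20), against 1.05 (0.873 and 1.99). Median width was 284 bp (205.5 and 359), against 258 bp (201 and 324). Each of these medians of the window lay between the quartiles of the other peaks. These are 14 peaks of 1 list with no replicate values, and the differences were not tested.

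Among the 14 peaks, the low folds stood with high backgrounds, which the fold contains by construction. Of 14 peaks, 9 (64.3%) had a fold of at least 10, against 76.5% of the whole list. A fold under 5 was found in 2, peaks 7 and 10, against 1.45% of the list. A background above 1.5 fragments was found in 5 (35.7%), a share near the 31.2% of the list. Of these 5, 4 had a fold of at most 6.61, peak 4 being the exception. None of the 14 was at the background's floor of 0.489, where 6.21% of the list stood. By height, 3 peaks reached the list's upper quartile of 23 fragments, against 25.1% of the list. By width, 6 reached the upper quartile of 320 bp, against 25.1%, while 3 had the smallest width, against 9.04%.

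For some peaks the background rests on few fragments. In 6 of the 14, against 41% of the list, it was a whole multiple of 0.998 fragments, read here as 1 control fragment within the narrowest peak width of 175 bp. For peaks 8 and 12 the multiple was 1, for peak 4 it was 2, for peak 7 it was 3, and for peaks 5 and 10 it was 4. By counting error alone (exact 95% Poisson intervals), 4 fragments could stand for a level of 1.09 to 10.2. For 1 fragment the level was 0.0253 to 5.57. These intervals treat the background as a bare count. No background in the list lay below 0.489, so the limit of 0.0253 lies under any value seen. The intervals are therefore only a rough guide, and the order of these 6 backgrounds, and of the folds over them, was not resolved. The backgrounds of the other 8 peaks, from 1.05 to 2.27, were not multiples of 0.998, and no number of control fragments is given for them. Whether they also rest on few control fragments was not determined. No source used here names the control.

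**Figure D4:**
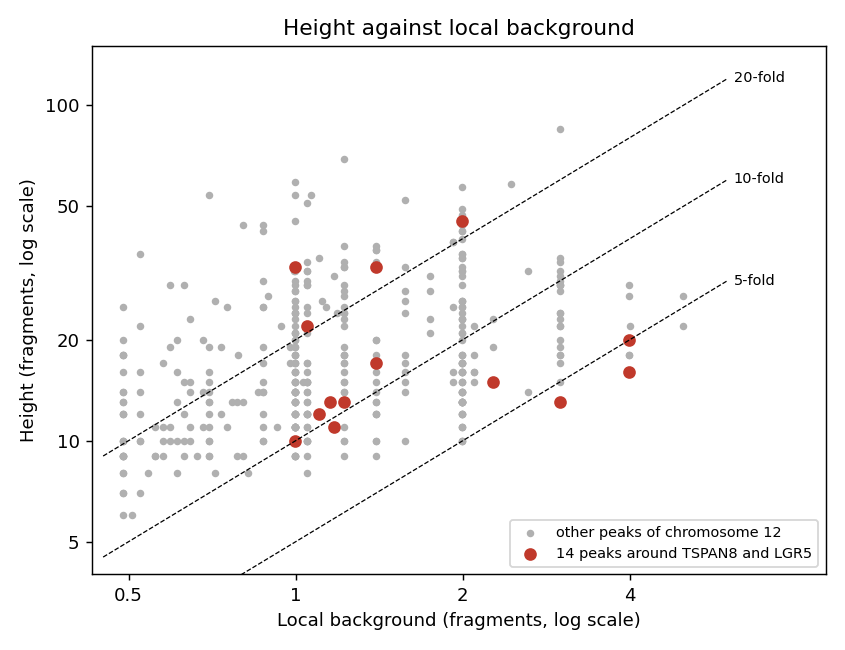
Height against local background, both in fragments on log scales, for the 14 peaks (red) and the other 410 peaks of chromosome 12 (grey); dashed lines mark folds of 5, 10 and 20. Red points lie within the cloud of grey points in height, and peaks 7 and 10 lie below the line of 5.

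Among windows of 0.7 Mb laid end to end over chromosome 12, this one held the most GATA6 peaks. Its 14 compared with a median of 2, a 90th percentile of 5 and a highest count of 11 over the other 189 windows, and 55 windows held 0. This came to 20 peaks per Mb, 6.23 times the chromosome's 3.21 per Mb. Over chromosomes 1 to 22 and X, 9 of 4166 such windows held 14 or more, this one included.

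The rank depended on the lower-scoring peaks and on the size of the window. Of the 14 peaks, 5 had a −log10 q at or above the list's median: peaks 4, 8, 11, 13 and 14. With only such peaks counted, the window held 5 where the highest of the others held 7, 6 others held as many or more, and its rank fell from 1 to 5. In windows of 1.4 Mb centred on it, it held 16 peaks where another held 18, and ranked 2.

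**Figure D5:**
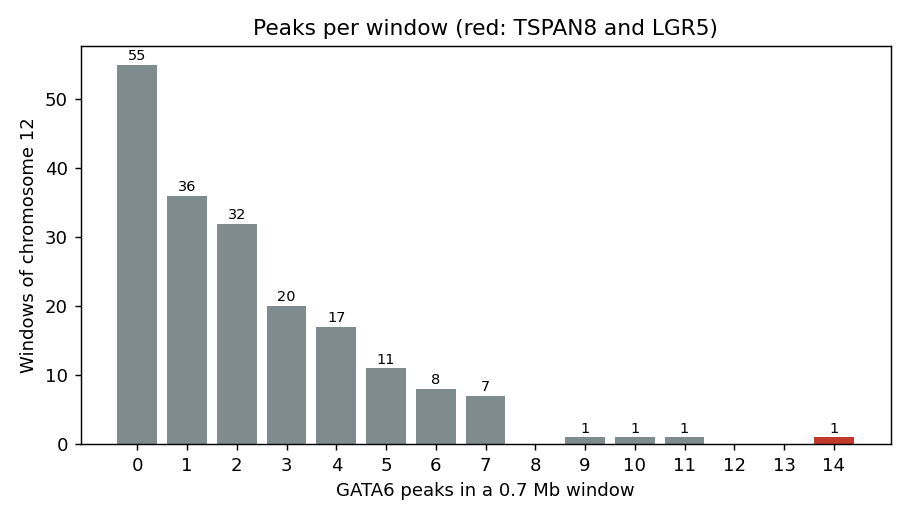
Number of 0.7 Mb windows of chromosome 12 (vertical axis) by the number of GATA6 peaks they hold (horizontal axis), with the count of windows above each bar. The window of TSPAN8 and LGR5 (red) holds 14, and the other 189 hold at most 11.

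The windows with the next highest counts are set beside this one. The window from 12.6 to 13.3 Mb held 11 peaks with a median height of 22 and a median fold of 12.5, and its largest linked group had 3. From 53.2 to 53.9 Mb there were 10 peaks with a median height of 13 and a median fold of 15.2, with a largest group of 5. The window from 93.1 to 93.8 Mb held 9 peaks, with a median height of 18, a median fold of 17.0 and a largest group of 3. The TSPAN8 group of 7 was larger than any of these, and the median distance between neighbouring summits, 2.55 kb, was below their 18.6, 10.7 and 37.3 kb. The neighbourhood was picked for its cluster of summits, so nothing follows from its larger group or closer summits. The window from 53.2 to 53.9 Mb had 5 of 10 peaks in its largest group, against 7 of 14 here. It held 6 groups with summits over 158 kb, against 5 groups over 288 kb here. Of these 4 windows, that of TSPAN8 and LGR5 had the lowest median fold.

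The edges of the window did not decide its members. The first summit inside, peak 1, lay 147 kb from the lower edge and the last, peak 14, lay 265 kb from the upper edge. The nearest peak outside on the lower side had its summit at 71210191, 190 kb before the edge, and was 30 fragments high (10.02-fold). On the upper side it was the one at 74163300, which was 16 fragments high (16.04-fold).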

How the data were processed

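ChIP-seq of GATA6 in LS174T cells gave 1 deposited peak list. Per the submitters' processing notes, CASAVA 1.8 and BWA 0.5.9-r16 were used for the GATA6 and input libraries, with build hg19. Not given in the sources used here are the peak caller, the control and any pooling of libraries. Per the file headers, each peak has a pileup (a coverage signal, in whole fragments), a fold enrichment (a linear ratio), and a −log10 p-value and −log10 q-value. All of these are the authors' own, and start, end and summit are positions in bp.

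Local background was computed as height divided by fold. The deposited −log10 p was recomputed from it with a Poisson model, and the largest difference was 0.0159. Windows of 0.7 Mb were laid end to end so that the described one was among them. A background counted as a multiple of its step within the rounding of the fold (0.005) plus 0.0005 of its value. The counting of windows and groups was tested on simulated data. RefSeq gives promoter sequences and gene order in GRCh38.p14. No hg19 annotation was used, so peaks at other genes of the R-spondin receptor and tetraspanin families were not analysed here. All 14 peaks of the window are described, with both genes; other windows are the 3 with the next highest counts. The genes, gene spans and window were chosen with earlier results of these data known. No test was made, since the list has no values per library. Alternatives were a score threshold, joined summits, other windows, distances and linking, another form of the background, and GATA alone. Python 3.11.15, pandas 2.3.3, scipy 1.17.1 and matplotlib 3.10.9 were used.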

Additional observations from a re-analysis of the deposited data

How the results depend on the processing

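With peaks at or above the list's median −log10 q of 9.24, the window held 5 peaks in place of 14, ranked 5 in place of 1, and had a median height of 33 and a median fold of 22.55, in place of 15.5 and 10.8; such a threshold leaves fewer and higher peaks by construction. With a fold of at least 10 it held 9 peaks. Windows of 1.4 Mb gave rank 2. With background taken as (height + 1) / fold − 1, its median was 0.377 in place of 1.31, but the deposited −log10 p then differed from the recomputed one by a median of 15.0, against 0.00292 for height divided by fold. Linking over 30 kb, a distance added after the data were seen, gave a largest group of 11 in place of 7, while 5 and 20 kb gave 7. Searching GATA alone gave 5 matches in the outer TSPAN8 window in place of 1. Windows shifted by 0.35 Mb and summits joined within 1 kb left the rank at 1. Counting only windows that hold a peak also gave 1, but dropping empty windows cannot change a first rank.

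No paired analysis was possible because the list gives no value per library. Leaving out 1 library at a time was not run for the same reason.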
